A study of Mus musculus with 32 samples.

Results

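Mettl3 and Mettl14, the genes deleted in the mouse embryonic stem cells of this series, were examined as transcripts that may themselves carry N6-methyladenosine (m6A). A peak was counted for a gene when its summit, the position of highest signal, lay in the gene body of the mm10 build: chromosome 14, 52294841 to 52308741 for Mettl3 (13901 bases) and chromosome 3, 123368295 to 123385990 for Mettl14 (17696 bases). These are 2 of the 49997 genes of the annotation table, and they held 28 of the 496760 peaks of the 16 deposited lists, 19 in Mettl3 and 9 in Mettl14. The cells were of the C57BL/6 strain and grew with 15% serum, LIF at 1000 U/ml, CHIR99021 at 3 µM and PD0325901 at 1 µM. The Mettl3 line was labelled Control or Mettl3 CKO and the Mettl14 line Control or Mettl14 CKO. RNA carrying m6A was immunoprecipitated with the antibody of the EpiMark kit and sequenced (MeRIP-seq) from polyadenylated RNA and from chromatin-associated RNA freed of ribosomal RNA. This gave 8 groups of 2 libraries. The labels do not state which exons were removed, which Cre was used, how complete the deletion was or whether replicates were separate cultures, so p-values reflect only how far these libraries spread, and that spread may be technical.

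METTL3 is the catalytic subunit of the nuclear enzyme that places m6A on RNA, and METTL14 is its partner subunit, which holds the RNA and the complex together but does not itself transfer the methyl group. Both belong to the same family of methyltransferases, and the pair sits in a larger complex with WTAP and other cofactors. In messenger RNA the mark is known to lie mainly in long internal exons and near stop codons, and in stem cells it is known to shorten the life of transcripts of pluripotency factors.

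A peak in a deleted gene measures neither its expression nor its genotype. A missing peak can mean less m6A, less of the transcript, fewer cells that make it or a shallower library. These cannot be told apart here, since read depth is unknown and the input samples were left out. Whether a peak lay in a removed exon is not known either, as the labels do not state which exons were removed. The lists held 16537 to 23380 peaks in polyadenylated RNA and 37955 to 45241 in chromatin-associated RNA. Of 10 embryonic stem cell marker genes, 4 carried a peak in all 16 lists and 5 to 9 did so in any list, and only Sox2, whose body lies within another gene, had no peak of its own. Of 8 feeder fibroblast marker genes, 1 carried a peak in all 16 lists and 2 to 8 did so in any list.

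The start of the Mettl3 transcript separates its sense peaks from most of its antisense peaks, so the sequence just before it is shown first. The RefSeq table (GRCm38.p6) places the start site at base 52305124 of chromosome 14, on the minus strand. The annotated body reaches 3617 bases further upstream. The window covers the 250 bases before the start, chr14:52305125-52305374 on the minus strand, and capitals mark GAAC on the transcribed strand.
Mettl3 upstream: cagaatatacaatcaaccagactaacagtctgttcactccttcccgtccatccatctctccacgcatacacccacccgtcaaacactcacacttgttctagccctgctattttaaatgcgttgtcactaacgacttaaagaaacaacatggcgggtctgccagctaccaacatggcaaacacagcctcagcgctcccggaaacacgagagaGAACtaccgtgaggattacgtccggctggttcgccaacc
No peak of the 16 lists overlapped this window. GGAC and GAAC, letters found at the core of many m6A sites, were searched on both strands. GGAC had 0 matches on the transcribed strand and 2 on the other, and GAAC had 1 and 3. Of the 32851 promoter windows of the same length, 57.97% held GGAC and 53.8% GAAC on the transcribed strand, and 59.5% and 53.2% on the other. A transcript that begins at this start site does not contain the window, so the matches do not describe m6A in that transcript. The RefSeq table held no entry for Mettl14.

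In Mettl3 the peaks belonged almost entirely to chromatin-associated RNA. All 8 chromatin-associated lists held at least 1 peak, 18 in total, whereas 1 of the 8 polyadenylated lists held 1. In chromatin-associated RNA the Mettl3-line controls held 3 and 2 peaks and the Mettl3 knockouts 1 and 1. The Mettl14-line controls held 4 and 4 and the Mettl14 knockouts 1 and 2. In polyadenylated RNA, Mettl3 knockout 2 held 1 peak and the other 7 libraries 0. The chromatin-associated libraries were thus at or above the polyadenylated libraries of their line and genotype, with a tie only in the Mettl3 knockouts.

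**Figure D1:**
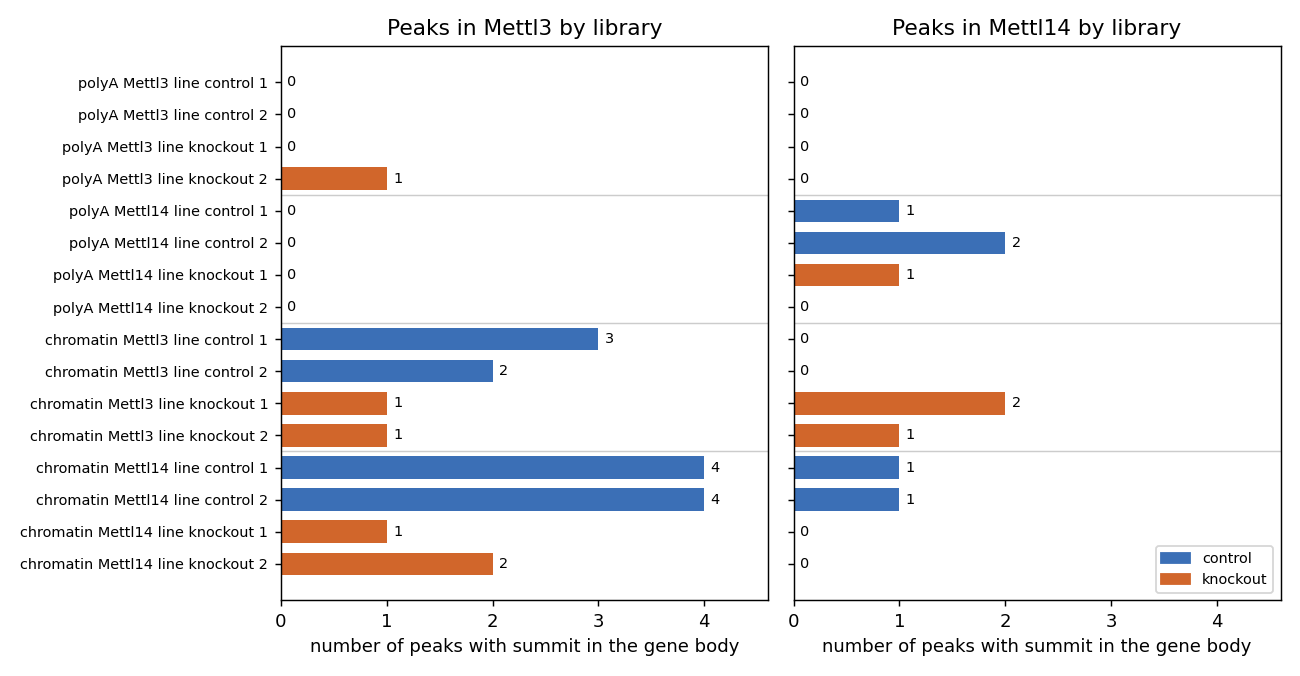
Number of peaks with a summit in Mettl3 (left) and Mettl14 (right) in each of the 16 libraries, with controls in blue and knockouts in orange; each bar is 1 library. Mettl3 had peaks in all 8 chromatin-associated lists, with 2 to 4 in each control and 1 or 2 in each knockout, and Mettl14 had peaks in 7 lists.

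The mean number of Mettl3 peaks was 2.25 ± 1.28 (SD, n = 8) in chromatin-associated and 0.125 ± 0.354 (n = 8) in polyadenylated RNA, a difference of 2.12 peaks per library. It was larger than the spread between replicates (exact two-sided permutation test within line and genotype, p = 0.00463, and 0.0187 after Benjamini-Hochberg adjustment over 14724 genes). With both strands counted, Mettl3 had peaks in both chromatin-associated and neither polyadenylated list in both control groups and in the Mettl14 knockouts. This pattern was shared by 19.9% (Mettl3-line controls), 30.0% (Mettl14-line controls) and 18.5% (Mettl14 knockouts) of genes marked in both chromatin-associated lists. Over all genes, the permutation test of RNA type gave p at or below 0.05 with more peaks in chromatin-associated RNA for 39.2% of the 14724 genes and with fewer for 3.56%, so Mettl3 shares this direction with a large part of the transcriptome, and the chromatin-associated lists were also the longer ones. Among the 10000 strongest peaks of each list, ranked by the p-value of the peak and not by fold, 1 Mettl3 peak remained in each RNA type. The difference was then 0 (exact permutation p = 1.0).

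The peaks of Mettl3 fell into 7 regions, formed by merging peaks of the same strand that overlapped by at least 1 bp. The most frequent lay at bases 52300079 to 52300502 on the minus strand, the transcribed strand of Mettl3, and held a peak in 7 lists. Its summits lay within 64 bases of each other. The fold enrichment, the authors' ratio of immunoprecipitated signal over background, was 4.16 and 6.82 in the chromatin-associated Mettl3-line controls and 4.26 and 4.64 in the Mettl3 knockouts. This was the only Mettl3 region with a peak in all 4 libraries of a comparison, and that comparison was the deletion of Mettl3 itself. The region also held the single peak in polyadenylated RNA, of fold 3.40 in Mettl3 knockout 2. In the Mettl14 line it held a peak in control 1 (4.42) and in knockout 2 (4.82) but not in the other 2 libraries.

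Right beside it, at 52299728 to 52300034, another minus-strand region carried folds of 1.62 and 4.90 in the chromatin-associated Mettl14-line controls and no peak in the Mettl14 knockouts or in any library of the Mettl3 line. It was called lost, the call for a peak in both controls and neither knockout. No share over all regions of the series stands beside the calls of single regions of either gene, so how common such calls are is not shown. The minus-strand region at 52304694 to 52305068 began 56 bases after the start site whose upstream sequence is printed above. It had folds of 5.82 and 4.76 in the Mettl14-line controls and 5.17 in knockout 2, with no peak in knockout 1 or in the Mettl3 line. Its 3 summits lay 132 to 134 bases after the start, within 2 bases of each other. Mettl3-line control 1 alone held the minus-strand peaks at 52296744 to 52296893 (3.61) and 52298774 to 52298955 (3.16).

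On the opposite, plus strand Mettl3 held 5 of its 19 peaks. Of these, 4 formed a region at 52307629 to 52307814, with summits 2607 to 2626 bases upstream of the start site. The folds there were 5.48 and 5.83 in the Mettl14-line controls, 6.27 in Mettl14 knockout 1 and 4.30 in Mettl3-line control 2. The fifth lay at 52298162 to 52298379 in Mettl14-line control 2 (3.56). In Mettl14 knockout 1 the plus-strand peak was the only peak of the gene, so without it Mettl3 would have no peak in that library. Over all genes of known strand, 8.70% of summits in chromatin-associated RNA and 7.70% in polyadenylated RNA lay on the strand opposite to the gene. The source of the plus-strand signal was not tested.

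**Figure D2:**
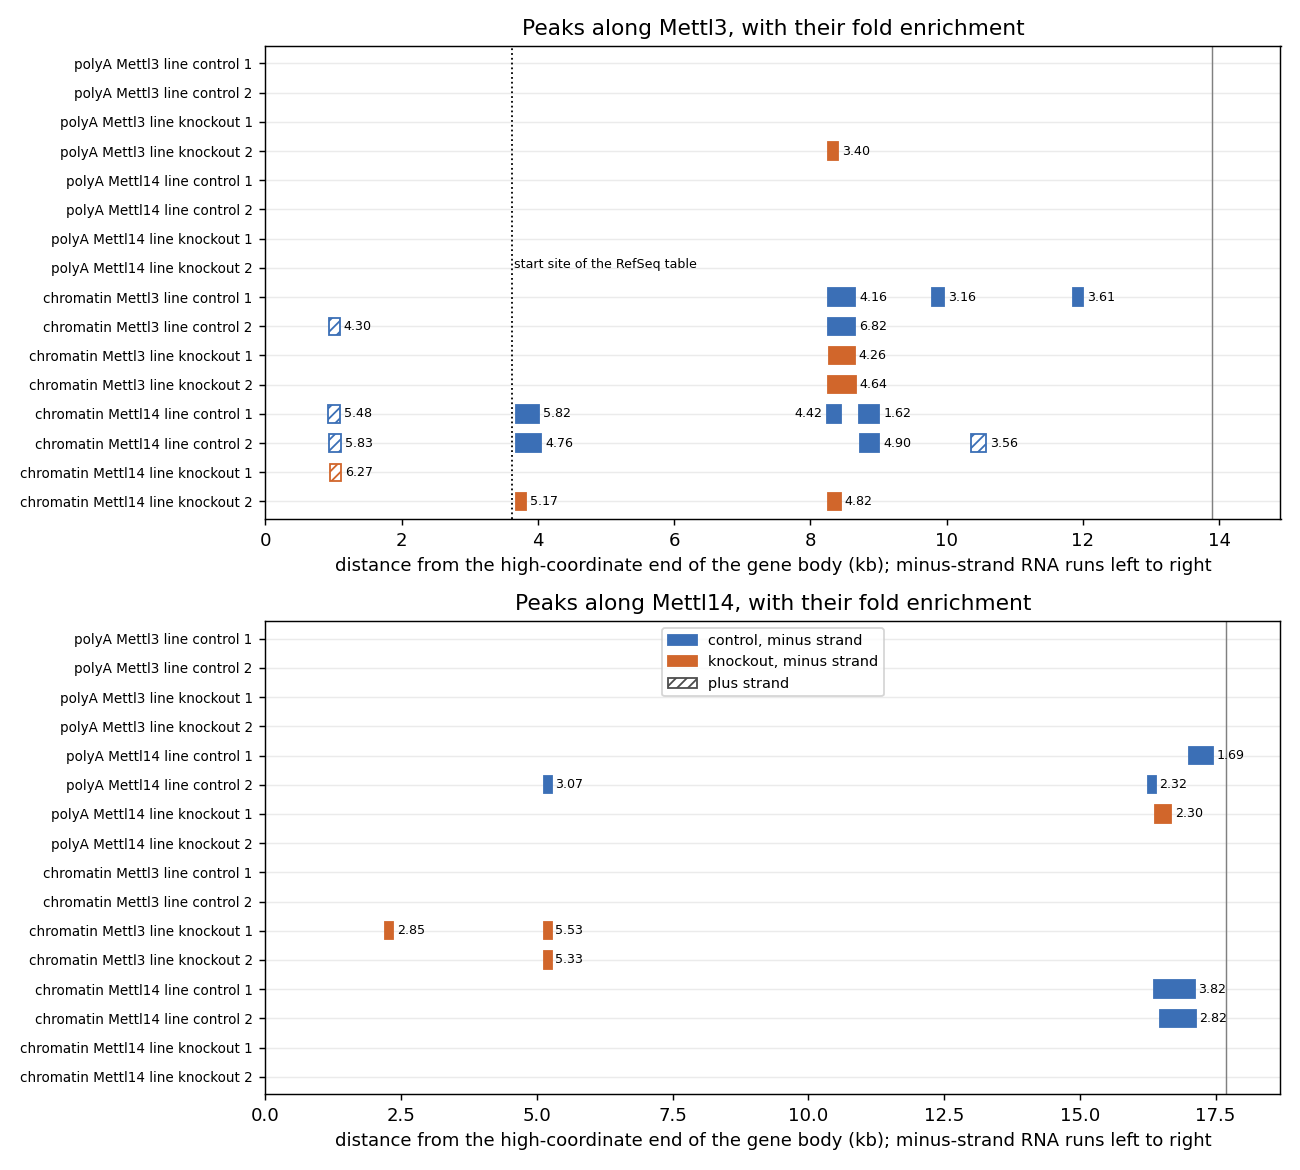
Peaks of each library along Mettl3 (top) and Mettl14 (bottom), drawn to scale in kb from the high-coordinate end of the body to its low-coordinate end (grey line), with the deposited fold enrichment beside each peak. Filled bars are minus-strand peaks, hatched bars plus-strand peaks, blue controls and orange knockouts; 7 of the Mettl3 peaks stack in 1 region, whereas Mettl14 knockouts of chromatin-associated RNA have none.

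With both strands counted, Mettl3 had fewer peaks in every knockout than in every control of chromatin-associated RNA, in both lines. The means were 2.50 ± 0.707 and 1.0 ± 0 (SD, n = 2) in controls and knockouts of the Mettl3 line, and 4.0 ± 0 and 1.5 ± 0.707 in those of the Mettl14 line. Groups did not overlap in this way in both lines for 2.87% of 13988 genes and in the opposite way for 3.20%, and in the same direction for 13.6% of genes in the Mettl3 line and 16.8% in the Mettl14 line. An exact two-sided permutation test over both lines, added after the values were seen, gave a difference of -2.0 peaks per library and p = 0.0556, the smallest value this design allows, and 0.898 after adjustment over all genes, so it did not pass. Over all 16 libraries the difference was -0.875 (exact permutation p = 0.111; adjusted 0.760), from 1.62 ± 1.85 in controls to 0.75 ± 0.707 in knockouts (SD, n = 8), while 1.35% of 14724 genes had fewer and 4.41% more peaks in knockouts at p of 0.05 or below. On the transcribed strand alone, controls and knockouts of chromatin-associated RNA shared a value in each line. The counts were 3 and 1 against 1 and 1 in the Mettl3 line, and 3 and 2 against 0 and 2 in the Mettl14 line. The difference over all 16 libraries was then -0.5 (exact permutation p = 0.417). The chromatin-associated lists of the Mettl3 knockouts were longer than those of their controls (45241 and 41162 against 37955 and 40090 peaks) and those of the Mettl14 knockouts shorter (38272 and 39385 against 42514 and 41315). Feeder fibroblast marker genes with a peak in chromatin-associated RNA numbered 2 and 3 of 8 in the Mettl3-line controls and 7 and 8 in the Mettl3 knockouts. In the Mettl14 line they numbered 4 in each control and 5 in each knockout. In polyadenylated RNA they numbered 5 to 7 in controls and 6 to 7 in knockouts of the Mettl3 line, and 2 and 4 in those of the Mettl14 line. Their part in the result was not tested.

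The knockout effect on Mettl3 peaks was -0.5 in the Mettl3 line (exact permutation p = 0.667) and -1.25 in the Mettl14 line (p = 0.333), each over 8 libraries with a smallest possible p of 0.0556. The former was -0.25 without polyadenylated Mettl3 knockout 1 or without chromatin-associated Mettl3-line control 1, and -0.75 without replicate 2 of either group. The 2 effects differed by 0.75 peaks per library, a difference that did not pass (exact permutation p = 0.583), while 1.09% of genes differed in this direction and 1.83% in the other at p of 0.05 or below. With presence or absence of a peak in place of their number, the direction turned to 0.125 over the 16 libraries and to 0.250 in the Mettl3 line (exact permutation p = 1.0 for both). As a gene, Mettl3 was retained, with a peak in all 4 libraries, in chromatin-associated RNA of both lines. In the Mettl14 line this call rests on the plus-strand peak of knockout 1, and on the transcribed strand alone the pattern there would be mixed. Retained genes made up 88.8% of those marked in both controls in the Mettl3 line and 88.2% in the Mettl14 line. In polyadenylated RNA its pattern was mixed in the Mettl3 line, with a peak in 1 of 4 libraries, and it had no peak in the Mettl14 line.

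Mettl14 had peaks in 7 of the 16 lists, 4 in chromatin-associated and 3 in polyadenylated RNA, and all 9 peaks were on the minus strand. In chromatin-associated RNA the Mettl14-line controls held 1 and 1 peak and the Mettl14 knockouts 0 and 0. The Mettl3-line controls held 0 and 0 and the Mettl3 knockouts 2 and 1. Controls and knockouts therefore did not overlap in either line, and the order was opposite between lines. Over all genes, both knockouts had more peaks than both controls for 20.4% in the Mettl3 line and fewer for 16.8% in the Mettl14 line, and both held for 1.82% of 13988 genes. In polyadenylated RNA the Mettl14-line controls held 1 and 2 peaks and the knockouts 1 and 0, so the groups shared a value, and the 4 libraries of the Mettl3 line held 0.

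The peaks of Mettl14 formed 3 regions, and the 2 lines used different ones in chromatin-associated RNA. The first, at 123368534 to 123369737, lies 625 to 1329 bases from the low-coordinate end of the body, measured to the summits. There the chromatin-associated Mettl14-line controls had folds of 3.82 and 2.82. The polyadenylated controls had 1.69 and 2.32 and polyadenylated knockout 1 had 2.30. This region spans 1204 bases and its summits spread over 704, so it joins peaks that do not all overlap directly: control 1 ended at 123368972 and knockout 1 began at 123369303. With summits within 100 bases as the rule for a shared region, 1 region of the 2 genes was lost in chromatin-associated RNA of the Mettl14 knockout, that of Mettl3, in place of 2.

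The second Mettl14 region, at 123380710 to 123380864, held narrow peaks with summits within 5 bases of each other. The folds were 5.53 and 5.33 in the chromatin-associated Mettl3 knockouts and 3.07 in polyadenylated Mettl14-line control 2. It was called gained in the Mettl3 line, the call for a peak in both knockouts and neither control. The third, at 123383631 to 123383784, held 1 peak, of fold 2.85 in Mettl3 knockout 1. No peak of either chromatin-associated Mettl14 knockout lay in any of the 3 regions.

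At gene level Mettl14 was lost in chromatin-associated RNA of the Mettl14 knockout, a call shared by 5.76% of the 10327 genes marked in both controls. It was gained in chromatin-associated RNA of the Mettl3 knockout, as were 5.01% of the 10286 genes marked in both knockouts. The Mettl3 knockouts had no Mettl14 peak in polyadenylated RNA, a pattern seen in 20.8% of these 10286 genes. The gain lay in the same libraries in which feeder fibroblast marker genes with a peak went from 2 and 3 of 8 to 7 and 8. In polyadenylated RNA of that line these were 5 to 7 in controls and 6 to 7 in knockouts. Stem cell marker genes with a peak numbered 9 of 10 in each chromatin-associated library of the line. In its polyadenylated RNA they numbered 7 in each control and 5 to 6 in knockouts. The part of the feeder markers in the gain was not tested either. Gains in polyadenylated RNA of the Mettl14 knockout reached 14.2% of genes, where the knockout lists were longer (23380 and 22654 peaks, against 16537 and 17738), but Mettl14 itself held fewer or as many peaks in those knockouts as in the controls.

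The mean number of Mettl14 peaks in its own line was 1.25 ± 0.5 (SD, n = 4) in controls and 0.250 ± 0.5 in knockouts, a difference of -1.0 (exact two-sided permutation p = 0.111, smallest possible 0.0556). In the Mettl3 line it was 0 ± 0 in controls and 0.75 ± 0.957 in knockouts (exact permutation p = 0.333). The 2 effects differed by -1.75 peaks per library (exact permutation over 16 libraries, p = 0.0185). This did not hold after adjustment over 14724 genes (adjusted permutation p = 1.0), and 1.09% of genes differed in the same direction at p of 0.05 or below. Within chromatin-associated RNA alone the effects were -1.0 and 1.5 and differed by -2.50 (exact permutation p = 0.0556, the smallest possible), and within polyadenylated RNA they were -1.0 and 0 and differed by -1.0 (p = 0.667). The difference was -1.5 with peaks of at least 2-fold only (exact permutation p = 0.0833). It was 0 among the 10000 strongest peaks per list by p-value, where no Mettl14 peak remained. Over the 4 comparisons together the knockout effect was -0.125 (exact permutation p = 1.0), and chromatin-associated and polyadenylated RNA differed by 0.125 peaks (p = 1.0).

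The strength of the peaks was read only within each list, as the percentile of the fold among all peaks of that list. The strongest Mettl3 peak stood at percentiles 33.2 and 72.9 in the chromatin-associated Mettl3-line controls and 43.3 and 46.9 in the knockouts. In the Mettl14 line the controls had 61.5 and 60.5 and the knockouts 64.6 and 53.1. The strongest chromatin-associated Mettl3 peak of each library thus lay between percentiles 33.2 and 72.9, while the single polyadenylated peak stood at 24.6 and the weakest peak of the gene, in Mettl14-line control 1, at 0.242. The strongest Mettl14 peak stood at 28.5 and 8.51 in the chromatin-associated Mettl14-line controls and at 66.4 and 59.7 in the Mettl3 knockouts. In polyadenylated RNA it stood at 2.84 and 25.0 in the controls and at 6.02 in knockout 1. The peaks that Mettl14 had in its own line were therefore in the weaker part of those lists.

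**Figure D3:**
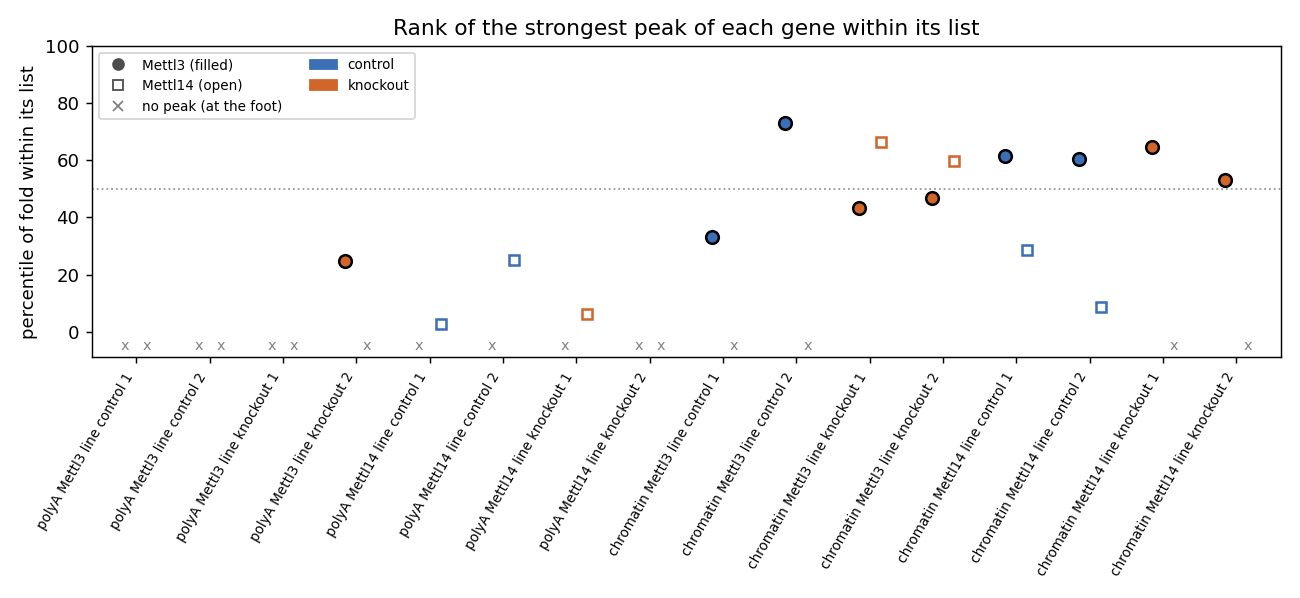
Percentile, within its own list, of the fold enrichment of the strongest peak of Mettl3 (filled circles) and Mettl14 (open squares) in each library, with controls in blue and knockouts in orange and crosses at the foot where there was no peak; the dotted line is the middle of a list. Mettl14 lies at or below 28.5 in its own line and at 59.7 and 66.4 in the chromatin-associated Mettl3 knockouts.

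Apart from Gm22713, the genes beside the deleted ones carried peaks in more lists than the deleted ones. Sall2, a zinc finger transcription factor gene 2435 bases above Mettl3, held a peak in all 16 lists, with a best fold of 5.17 to 25.1 (median 13.2). Tox4, a gene of an HMG-box protein whose body overlaps that of Mettl3 by 669 bases, held one in 14 lists (up to 11.7, with a median of 6.75). Sec24d, which encodes a subunit of the COPII vesicle coat and lies 2653 bases below Mettl14, held one in all 16 (6.21 to 19.1). Gm22713, an annotated small nuclear RNA on the other side of Mettl14, held none. The members were bounded by the gene body: the nearest summit inside was 991 bases from an end of Mettl3 (5.48, Mettl14-line control 1 of chromatin-associated RNA) and 625 bases from an end of Mettl14 (1.69). The nearest outside was 2912 bases below Mettl3 (1.93) and 3432 above it (9.91), and 1597 below Mettl14 (3.47, chromatin-associated Mettl14-line control 1).

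Across all lists Mettl3 and Mettl14 were marked less widely than the median of 14 lists over 12848 protein-coding genes with any peak. Mettl14 was among the 26.9% found in at most 7 lists and Mettl3 among the 35.0% found in at most 9, while 5002 genes were found in all 16. Of 7408 protein-coding genes with a peak in all 8 chromatin-associated lists, 435 (5.87%), Mettl3 among them, had one in at most 1 polyadenylated list. Mettl3 belongs there only with its plus-strand peaks counted.

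**Figure D4:**
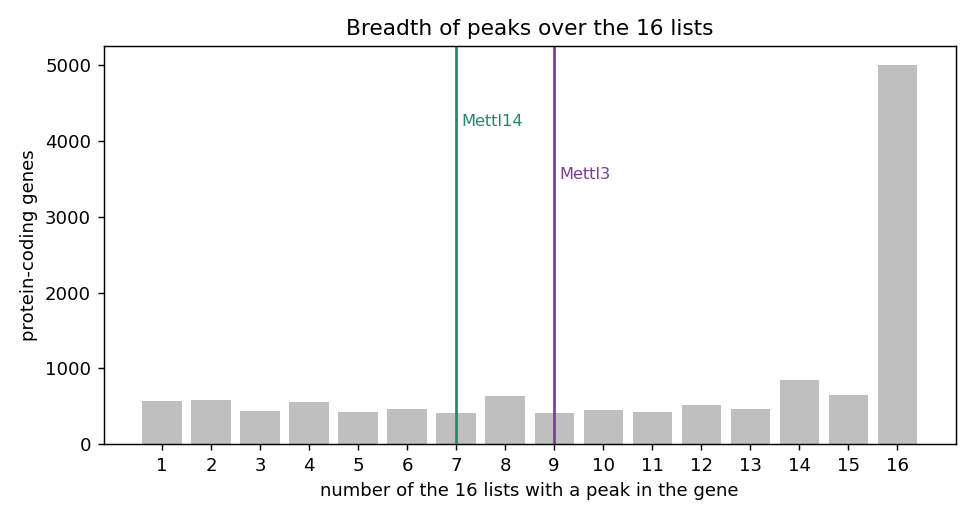
Number of protein-coding genes (vertical axis) by how many of the 16 lists hold a peak in them (horizontal axis), with lines at Mettl14 (7 lists) and Mettl3 (9 lists). The tallest bar is the 5002 genes marked in all 16 lists.

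A further 31 protein-coding genes had a peak in exactly the same 9 lists as Mettl3, with peaks of both strands counted. Of these the closest in the within-list rank of the best peak were Rbx1, a subunit of cullin ubiquitin ligases, with a mean absolute difference of 10.8 percentile points over the 9 lists, Etfb, a subunit of the electron transfer flavoprotein (11.54), Memo1 (13.99), Dtymk, thymidylate kinase (18.0), and Gcfc2 (18.7). No other gene matched Mettl14 in all 16 lists, and 3 matched in 15. They were Snrpa, a protein of the U1 splicing particle (8.85 percentile points over 6 shared lists), Topbp1, a replication checkpoint protein (20.7 over 7), and Slc4a4, a bicarbonate transporter (36.4 over 6). Libraries of 1 line share their source, so these likenesses only describe the lists.

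Among the other genes of the m6A pathway, the 6 cofactors of the writer complex, Wtap, Virma, Rbm15, Rbm15b, Zc3h13 and Cbll1, held a peak in all 16 lists and were retained in all 4 comparisons. So were Fto and Alkbh5, the demethylases. Breadth varied in the rest of the list: 1 of the 6 other methyltransferases and 5 of the 11 readers held a peak in all 16 lists, Trmt112, a partner subunit of several methyltransferases, did so in 8 and Igf2bp3 in 6, and 1 reader held none. Of these methyltransferases, Mettl16, which methylates U6 small nuclear RNA, was lost in polyadenylated RNA of the Mettl3 knockout (5.05 and 2.80 in the controls). Mettl5, which methylates 18S ribosomal RNA, was gained there (5.47 and 6.14 in the knockouts). Of the 11 readers, Igf2bp1 was lost in the same comparison (1.62 and 1.39) and Igf2bp3 in chromatin-associated RNA of the Mettl14 knockout (1.68 and 2.28).

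Of the 25 pathway genes other than Mettl3 and Mettl14, 2 were lost, 1 gained and 17 retained in polyadenylated RNA of the Mettl3 knockout. Over all genes 4.48% of those marked in both controls were lost and 90.3% retained, and 5.14% of those marked in both knockouts were gained. The 25 genes include some with a mixed pattern or no peak, so counts and shares have unlike bases in all 4 comparisons. In polyadenylated RNA of the Mettl14 knockout 0 were lost, 0 gained and 18 retained, with 3 mixed and 4 without a peak. The shares over all genes there were 1.97% lost, 14.2% gained and 96.6% retained. In chromatin-associated RNA of the Mettl3 knockout 0 were lost, 0 gained and 22 retained, beside 5.90% lost, 5.01% gained and 88.8% retained over all genes. In that of the Mettl14 knockout 1 was lost, 0 gained and 22 retained, beside 5.76% lost, 3.32% gained and 88.2% retained. These calls have no test, since 2 libraries against 2 cannot give an exact p below 0.333. Of the 27 genes on the list, Mettl14 alone was called lost or gained in both lines in chromatin-associated RNA, as were 0.794% of the 13988 genes with a chromatin-associated peak. Gain in the Mettl3 knockout with loss in the Mettl14 knockout was the pattern of 20 of these genes (0.143%), Mettl14 included.

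**Figure D5:**
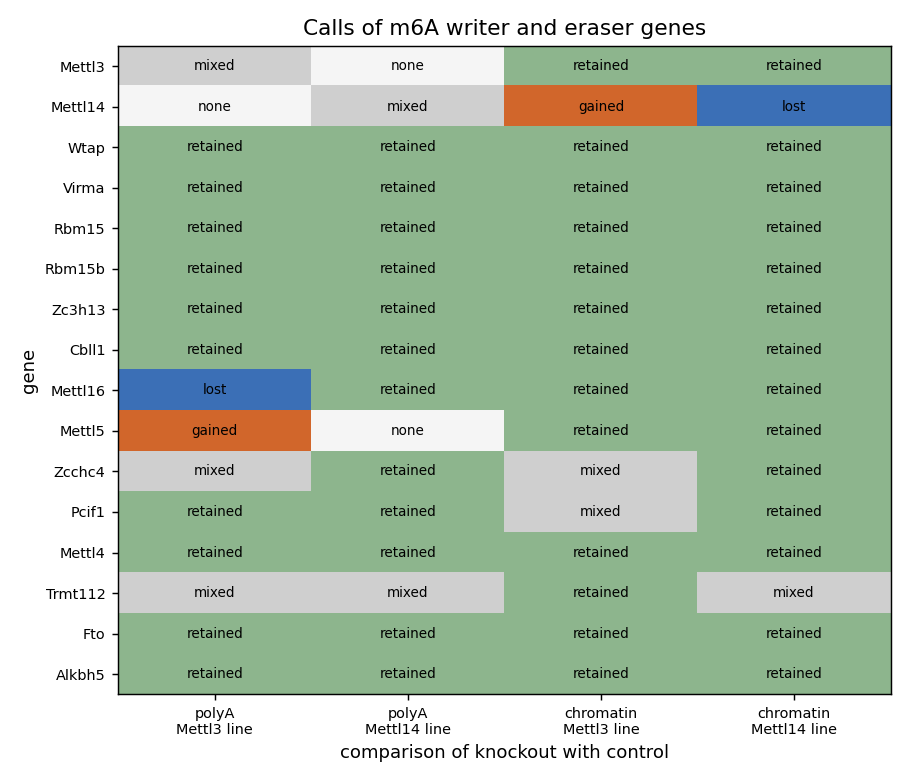
Calls of the m6A methyltransferase and demethylase genes (rows) in the 4 comparisons of knockout with control (columns): lost is a peak in both controls and neither knockout, gained the reverse, retained a peak in all 4 libraries, mixed any other pattern and none no peak. The 6 cofactors are retained throughout, and Mettl14 is gained in chromatin-associated RNA of the Mettl3 line and lost in that of the Mettl14 line.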

How the data were processed

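For each of the 16 immunoprecipitation libraries the authors deposited a separate list of stranded peaks. The 16 input samples were left out. The submitters' processing notes name mm10, CASAVA, Trimmomatic 0.38, HISAT2 2.1.0 and SAMtools 1.9; the peak caller is not given in the sources used here. Deposited values per peak are the fold, a ratio over the caller's background, the −log10 p and −log10 q, a score that was not used, and the summit offset. The summit is the peak start plus this offset. The fold describes and ranks peaks within a list only, and no interval can be given as depth is unknown.

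Peaks on spike-in RNA were removed. Summits in 1 gene body of the GRCm38.p6 table, the build of mm10, were counted per gene with Python 3.11.15. The table gives no exons. Genotype labels were permuted exactly within each comparison, and RNA type within line and genotype, for 10 tests of numbers of peaks. The planned adjustment over the 10 tests gave way to one over all genes, because members and lists were chosen with earlier results of these data known. The permutation test over the 4 comparisons was tested on simulated data, for genes with on average more peaks per library than Mettl3 and Mettl14. Its behaviour at the counts of these genes was not tested. Replicates shared 0.300 to 0.874% of peaks with identical ends, so they were kept as separate samples. Tests within 1 RNA type were added after the data were seen. Named genes were the neighbours, called pathway genes and up to 5 genes with the same list pattern. Alternatives were stricter thresholds, equal list lengths, overlap in place of summit, 1 strand, presence, covered bases, a replicate block and leaving out each library.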

Additional observations from a re-analysis of the deposited data

Results flagged for a closer look

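The effect of the knockout on the number of Mettl14 peaks had opposite directions in the 2 lines, with a difference of -1.75 peaks per library (exact permutation p = 0.0185, adjusted p = 1.0 over 14724 genes). The effect was -1.0 in the Mettl14 line and 0.75 in the Mettl3 line. In chromatin-associated RNA both Mettl14 knockouts were below both controls and both Mettl3 knockouts above theirs, as for 1.82% of 13988 genes. The region of the gain lay at 123380710 to 123380864 and that of the loss at 123368534 to 123369737 of chromosome 3.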

How the results depend on the processing

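Of 203 repeats of the 10 tests under other settings, 181 kept direction and side of the 0.05 threshold of the unadjusted p. Another 4 no longer passed it, 2 reversed, and 16 repeats of tests that had not passed went to an effect of 0. Tests within 1 line cannot give an exact permutation p below 0.0556, so their repeats could not cross the threshold. Covered bases, overlap, −log10 q of at least 3 and the transcribed strand changed no call of these tests. Overlap and −log10 q of at least 3 left every count of the 2 genes as it was, so those repeats only copy the main result. On the transcribed strand alone, however, Mettl3 controls and knockouts of chromatin-associated RNA shared a value in each line. The transcribed strand was not run for Mettl14, which has no entry in the promoter table. The exceptions were as follows, and their cause was not tested unless stated. Counting presence turned the Mettl3 knockout effect to 0.125 over 4 comparisons, 0.25 in the Mettl3 line and 0 in the Mettl14 line. The 10000 strongest peaks by p-value, which leave 2 Mettl3 and 0 Mettl14 peaks, gave 0 in all 10 tests. Folds of at least 2 gave 0 for the Mettl14 knockout effect over 4 comparisons. The Mettl14 difference between lines was -1.5 with folds of at least 2 (p = 0.0833), and with replicate numbers paired as a replicate block -1.75 (exact permutation p = 0.0625). Replicate differences correlated between -0.00630 and 0.00997 across genotypes. No replicate effect shared by the genotypes was seen, but no label states whether the numbers pair the libraries, and these values cannot settle it. The block changed no other call. Leaving out 1 library gave -2.0 to -1.5 for the difference between lines of Mettl14, with p of 0.0185 to 0.0370, and 2.0 to 2.25 for Mettl3 between RNA types. It gave -0.75 to -0.25 for the Mettl3 knockout effect in the Mettl3 line, and for Mettl14 -0.25 to 0 over 4 comparisons and 0 to 0.25 between RNA types. Regions lost in chromatin-associated RNA of the Mettl14 knockout numbered 1 with summits within 100 bases.

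For all genes, the 10000 strongest peaks by p-value left 4237, 4509, 3484 and 3987 retained (polyadenylated Mettl3 and Mettl14, then chromatin-associated Mettl3 and Mettl14), against 7573, 6823, 9323 and 9109. They gave 277 lost and 372 gained in polyadenylated RNA of the Mettl14 knockout, against 139 and 1244, and 1004 lost in chromatin-associated RNA of the Mettl3 knockout, against 620. Leaving out 1 library loosens the calls, since its group is then judged by the other library alone. The lost and gained counts can then only rise, so they do not measure how stable the calls are. Leaving out 1 library gave, in polyadenylated RNA, 566 to 623 lost and 619 to 748 gained for Mettl3 and 183 to 242 lost for Mettl14. In chromatin-associated RNA it gave 779 to 974 lost and 665 to 924 gained for Mettl3 and 824 to 927 lost and 456 to 581 gained for Mettl14. With 2 libraries per group and 0 to 4 peaks per library, single peaks move the values of the 2 genes, and depth is unknown.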
